A study of Arabidopsis thaliana with 6 samples.

Results

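The genes described here were 37 named immune receptor genes of Arabidopsis thaliana, listed under the nucleotide-binding leucine-rich repeat (NLR) family. Whether each of them encodes leucine-rich repeats was not checked. They were chosen by locus identifier from a list of 38 characterised receptors and made up 37 of the 32948 genes in the expression table. By the domain at the start of the protein they fell into 22 genes of the Toll/interleukin-1 receptor (TIR) class, 10 of the coiled-coil (CC) class and 5 RPW8-like helpers. All 37 locus identifiers were present. The study compared RNA of seedlings of the mutant line cnd1-3 (3 libraries) with seedlings of Col-0, the reference accession used as wild type (3 libraries), and by its title CND1 bears on how stable nuclear and plastid DNA are. Beyond genotype, the labels gave no treatment, seedling age, growth condition or kind of cnd1-3 lesion, and they did not tie CND1 to a locus, so its own level was not analysed here. Whether the 3 replicates of each genotype were grown apart is not stated, so the p-values below measure the spread between these libraries, which may be technical.

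NLR proteins are receptors inside the plant cell that detect pathogen effectors, either directly or by guarding a host protein that the effector modifies. Sensor NLRs of the TIR class signal through the EDS1 family of proteins to the RPW8-like helpers ADR1 and NRG1, whereas many CC-class sensors assemble into a membrane channel themselves and several depend on the membrane protein NDR1. Too much NLR activity causes autoimmunity and stunted growth, so plants restrain these genes at the level of RNA, including by microRNAs that pair with the stretch encoding the ATP-binding P-loop. Many NLR genes lie in tandem clusters, and some work as head-to-head pairs in which one partner senses and the other signals. Functions named below for single receptors are background, and whether the Col-0 alleles have them was not tested.

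The sequences shown are the microRNA miR472-3p, known in Arabidopsis to target CC-class NLR transcripts, and its best windows in the 9 receptors with at most 5 unpaired bases, so that their matches can be set beside their changes. The mature microRNA, at chromosome 1, 4182143 to 4182164 on the minus strand of TAIR10.1 (RefSeq annotation), is printed 5′ to 3′ with its seed, bases 2 to 8, in capitals. The sites are windows of annotated exon, printed 5′ to 3′ on the gene's own strand, and capitals mark bases that make no Watson-Crick pair with miR472-3p, G-U wobbles included.
miR472-3p: tTTTTCCTactccgcccatacc
RFL1 site: ggtatgggTggagtaggCaaaa
SUMM2 site: ggCatgggTggagtaggCaaaa
ADR1-L1 site: ggAatgggcggTgtTggTaaaa
CW9 site: ggGatgggcggTAtTggTaaaa
RPM1 site: ggGatgggcggTTCaggGaaaa
RPP13 site: ggtatgggAggCCtTggaaaGa
RPP8 site: ggGatgggcggTAtTggTaaaa
SOC3 site: ggAatgggAggaAtTggGaaaa
ZAR1 site: ggGatgggAggGCtaggTaaaa
The RFL1 window had 2 unpaired bases, the SUMM2 window 3, the ADR1-L1 window 4 and the other 6 windows 5 each. In the windows of RFL1 and SUMM2 every base facing the seed was paired except a C next to the closing run of A. Of 27443 annotated coding genes searched, 20 (0.0729%) held a window with at most 3 unpaired bases, and 2 of them were among the 37 receptors.

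The table gave FPKM for each library, that is, sequenced fragments scaled to exon length and library depth. Library sizes implied by the FPKM scaling ranged from 22125814 to 23081866 reads in cnd1-3 and from 23290031 to 30455907 in Col-0. Whole reads recovered per gene summed to 21929793 to 22879308 in the cnd1-3 libraries and 23087673 to 30157987 in the Col-0 libraries. Genes with a mean of at least 0.5 FPKM were tested with limma on log2(FPKM + 0.5), and a gene was called when its Benjamini-Hochberg adjusted p over all 17096 tested genes was under 0.05. On this scale a fold change understates the change of low genes. Of all tested genes 1896 (11.1%) were called, 598 higher (3.5%) and 1298 lower (7.59%) in cnd1-3. Lower genes thus made up 68.5% of the calls, but 54.3% with median-ratio scaling, 50.5% with quantile normalization and 47.7% after removal of the trends with GC content and gene length. The first principal component held 56.7% of the variance and separated the genotypes. The summed level of 3 green tissue markers was 50200 to 55300 FPKM in cnd1-3 and 52300 to 53200 in Col-0. Of 4 root markers 3 were at or near 0 in every library, and those 3 gave no sign of root tissue in RNA labelled as seedling. The other, SCR, was at 10.5, 9.83 and 9.83 FPKM in cnd1-3 and 8.62, 8.93 and 8.67 in Col-0 (limma adjusted p = 0.128). All 4 flower markers stayed under the 0.5 FPKM minimum and all 3 seed markers were at 0. In bulk tissue, fewer cells of a type and less RNA per cell cannot be told apart.

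The receptor genes were expressed in both genotypes at levels that differed far more between genes than between genotypes. Of the 37 genes 32 passed the minimum level, and their mean over the 6 libraries ran from 1.47 FPKM for SOC3 to 74.6 FPKM for RPP7, with a median of 8.22 FPKM. In cnd1-3, 4 of these 32 genes (12.5%) fell, none rose and 28 did not pass the test, against 7.59% of all tested genes that fell and 3.5% that rose. At an unadjusted p under 0.05 there were 10 of the 32, against 28.6% of all tested genes. The 4 that fell were SUMM2, LAZ5, RPM1 and RPS4. The median log2 fold change of the 32 genes was −0.11, beside −0.05 for all tested genes, and 29 of the 32 lay below 0, a number that was 23 under median-ratio scaling, quantile normalization or removal of the GC and length trends. Among all tested genes 59.9% lay below 0. In 13 receptors every cnd1-3 library was lower than every Col-0 library, and in 2, TAO1 and LOV1, every cnd1-3 library was higher, where the share among all tested genes was 21.5% and 12.3%. Leaving out 1 library brought the number of receptors that fell to between 1 and 3, and SUMM2 was among them in all 6 such fits.

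**Figure D1:**
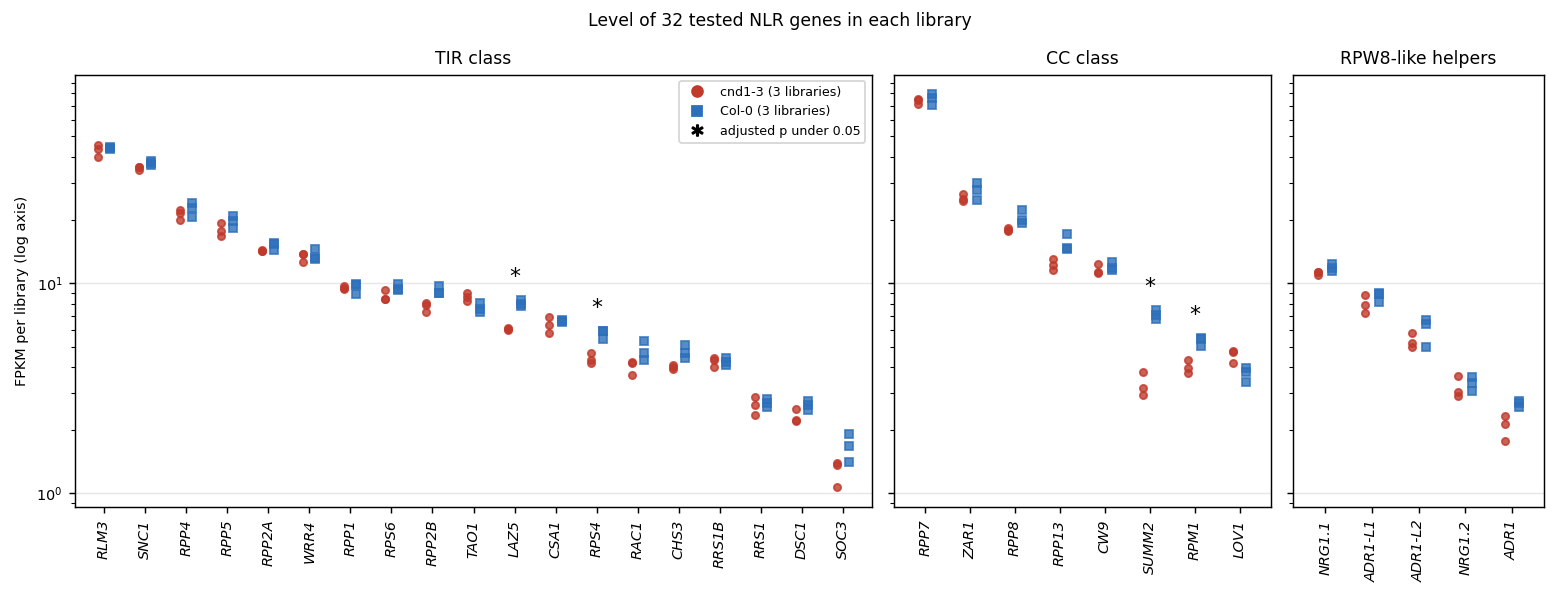
FPKM (log axis) of the 32 tested NLR genes in each of the 3 cnd1-3 libraries (circles) and 3 Col-0 libraries (squares), by class and ordered by mean level. Levels span 1.47 to 74.6 FPKM, and the asterisks mark the 4 genes with an adjusted p under 0.05, of which SUMM2 shows the widest gap between genotypes.

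Spread between libraries of a genotype was small for most of the receptors. The coefficient of variation of FPKM over the 3 libraries had a median of 5.82% in cnd1-3, with a range of 0.587% to 14.1% over the 32 genes. In Col-0 the median was 4.96% and the range 1.03% to 15.2%.

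The CC class held the largest change. Of its 8 tested genes 2 fell (25.0%, against 7.59% of all tested genes), none rose, and the median log2 fold change was −0.14. SUMM2, a receptor that is known to guard the MEKK1, MKK1/MKK2 and MPK4 kinase cascade through the kinase CRCK3, changed most of all 32. SUMM2 is AT1G12280, at chromosome 1, 4174875 to 4178021 on the minus strand of TAIR10.1. Its level was 3.19, 2.93 and 3.78 FPKM in the cnd1-3 libraries and 7.47, 6.78 and 7.07 FPKM in the Col-0 libraries. The genotypes were well apart, with every cnd1-3 library below the lowest Col-0 library. The mean was 3.30 ± 0.435 FPKM (SD, n = 3) in cnd1-3 against 7.11 ± 0.346 (SD, n = 3) in Col-0, a log2 fold change of −1.01 (SE 0.11, limma adjusted p = 0.00102). The 95% interval of that change was −1.25 to −0.77, and the summed reads behind it were 627 in cnd1-3 and 1603 in Col-0. SUMM2 was called in all 17 alternative fits, with adjusted p of at most 0.00558.

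RPM1, the receptor that guards the immune regulator RIN4, was the other CC-class gene that fell. It is AT3G07040, on the minus strand of chromosome 3 at 2225855 to 2229555. RPM1 stood at 4.29, 3.76 and 3.93 FPKM in cnd1-3 and 5.44, 5.50 and 5.02 FPKM in Col-0. The genotypes did not overlap, and the means were 3.99 ± 0.269 and 5.32 ± 0.261 FPKM (SD, n = 3 each). The log2 fold change of −0.37 (SE 0.09, limma adjusted p = 0.0349) was close to the threshold. Of the 6 fits that each left out 1 library, only the one without Col-0 replicate 3 called it (adjusted p 0.0436), and the others gave 0.0661 to 0.109. The call was also lost with no minimum level (0.0645), under quantile normalization (0.0934) and after removal of the GC and length trends (0.0505).

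The remaining 6 tested CC-class genes did not pass. RPP13, which recognises the downy mildew oomycete Hyaloperonospora arabidopsidis, came nearest, at 11.6, 13.0 and 12.2 FPKM in cnd1-3 and 14.7, 14.5 and 17.1 in Col-0, without overlap. Its log2 fold change was −0.32 (SE 0.09, limma adjusted p = 0.0523). A test on recovered reads with voom called it (adjusted p 0.031), as did a minimum level of 2 FPKM (0.0478) and a replicate block. RPP13 shares exon bases with a gene on the opposite strand, and 67.0% of its exon length is its own. LOV1, known for sensitivity to the fungal toxin victorin through guarding the thioredoxin TRX5, went the other way without passing. Its means were 4.55 ± 0.329 FPKM in cnd1-3 and 3.71 ± 0.293 in Col-0 (SD, n = 3 each; log2 difference 0.26, limma adjusted p = 0.126), and only quantile normalization called it higher (0.0317).

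RPP7 and ZAR1 had the highest levels of the CC class and showed no detectable difference. RPP7 (AT1G58602), a further downy mildew receptor whose full-length transcript depends on the chromatin protein EDM2, was at 74.3, 71.5 and 75.5 FPKM in cnd1-3 and 79.4, 70.7 and 75.9 in Col-0. The libraries of the 2 genotypes were interleaved, and the 95% interval of the log2 difference was −0.18 to 0.12. ZAR1 (AT3G50950), which forms a wheel-shaped resistosome with pseudokinase partners, was at 24.6, 25.2 and 26.5 FPKM in cnd1-3 and 24.8, 27.7 and 29.9 in Col-0, with an interval of −0.29 to 0.08. RPP8 (log2 difference −0.17, adjusted p 0.162) and CW9 (−0.04, 0.74) also did not pass in limma.

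**Figure D2:**
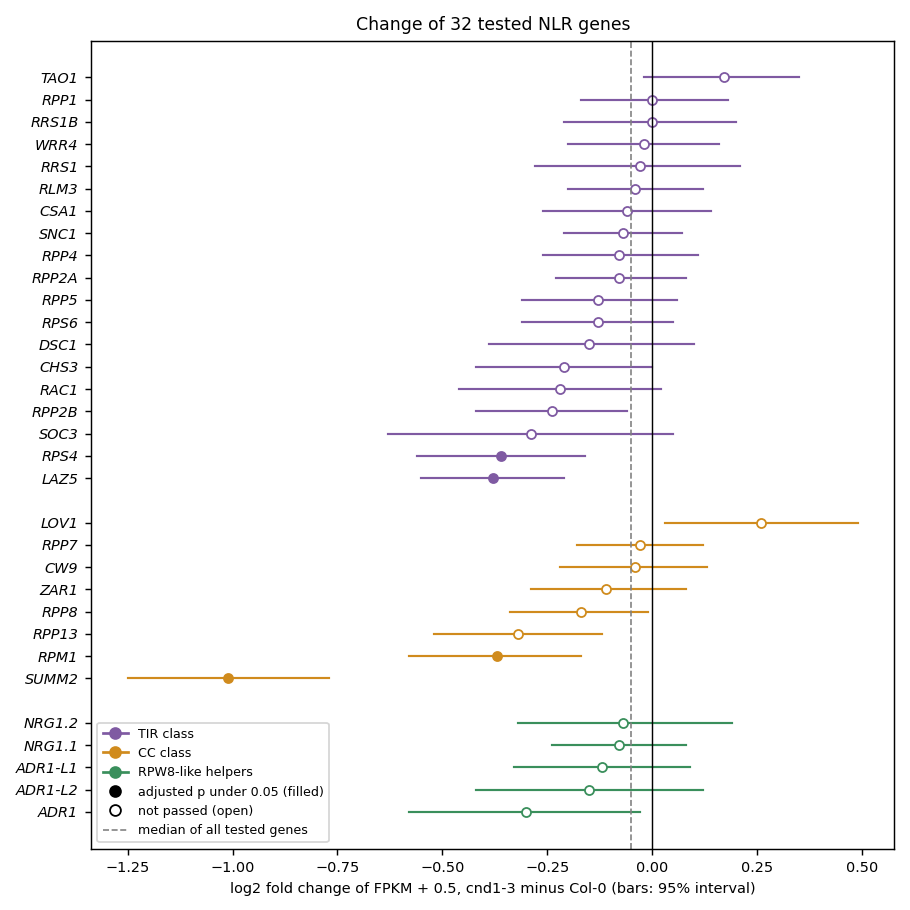
Log2 fold change of FPKM + 0.5, cnd1-3 minus Col-0, for the 32 tested NLR genes by class, with 95% intervals from limma; filled points have an adjusted p under 0.05 and the dashed line is the median of all tested genes, −0.05. SUMM2 lies at −1.01, and all other receptors plotted lie between −0.38 and 0.26.

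Of the 19 tested genes of the TIR class 2 fell (10.5%, against 7.59% of all tested genes), none rose and the median log2 fold change was −0.08. LAZ5, a TIR receptor known from the cell death of the acd11 mutant, is AT5G44870 at chromosome 5, 18114461 to 18119006. It stood at 6.13, 6.01 and 6.05 FPKM in cnd1-3 and 7.80, 7.96 and 8.33 FPKM in Col-0. The cnd1-3 values lay close together and all below the Col-0 values, with means of 6.06 ± 0.064 and 8.03 ± 0.274 FPKM (SD, n = 3 each). The log2 fold change was −0.38 (SE 0.08, limma adjusted p = 0.0171). The call held without any 1 of the Col-0 libraries and was lost without any 1 of the cnd1-3 libraries (adjusted p 0.0532 to 0.0596). Of all 150-base windows of LAZ5 exon, 4.03% also occur elsewhere in the genome.

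RPS4, the signalling partner of the RPS4 and RRS1 pair, fell to a similar extent. Its level was 4.68, 4.19 and 4.30 FPKM in cnd1-3 and 5.45, 5.93 and 5.95 FPKM in Col-0. No cnd1-3 library reached the lowest Col-0 library, and the means were 4.39 ± 0.256 and 5.77 ± 0.28 FPKM (SD, n = 3 each). The log2 fold change was −0.36 (SE 0.09, limma adjusted p = 0.0352). The call was lost in each of the 6 fits that left out 1 library (adjusted p 0.0553 to 0.109) as well as with no minimum level (0.0637), under median-ratio scaling (0.0537) and under quantile normalization (0.0913).

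RRS1, the sensor of that pair, carries a WRKY DNA-binding domain that effectors target. It was at 2.88, 2.36 and 2.64 FPKM in cnd1-3 and 2.69, 2.80 and 2.59 FPKM in Col-0. These values overlapped, and the 95% interval of the log2 difference was −0.28 to 0.21. RPS4 (AT5G45250, chromosome 5, 18321764 to 18326175, minus strand) and RRS1 (AT5G45260, 18326203 to 18332920, plus strand) are transcribed away from each other, and only 27 bases, at chromosome 5, 18326176 to 18326202, lie between their annotated starts.
Between RPS4 and RRS1: tgagatttgagtggttgaatgtccaat
The pair is shown because its members share this stretch as upstream sequence and only RPS4 passed the test. By itself this does not show that the 2 genes differ. Their 95% intervals overlapped, at −0.56 to −0.16 for RPS4 and −0.28 to 0.21 for RRS1. The log2 ratio of RPS4 to RRS1, taken from FPKM + 0.5 for each gene, was 0.62, 0.71 and 0.62 in the cnd1-3 libraries. In the Col-0 libraries it was 0.90, 0.96 and 1.06. The ratio was lower in every cnd1-3 library, by 0.32 on average. The exact 2-sided permutation test gave p = 0.1, the smallest that 3 against 3 libraries allow, and 0.3 after adjustment over the 6 pairs compared, so it could not pass at this size.

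Ratios within the other neighbouring pairs were compared in the same way, and none could pass (adjusted p 0.3 to 1.0). RPP2A (AT4G19500) and RPP2B (AT4G19510), both needed for the same downy mildew resistance, lie 3185 bases apart. RPP2A was at 14.2, 14.4 and 14.3 FPKM in cnd1-3 and 14.4, 15.6 and 15.4 in Col-0. RPP2B was at 8.05, 7.87 and 7.29 FPKM in cnd1-3 and 8.97, 9.72 and 9.03 in Col-0. RPP2B alone of the 2 had no overlap between genotypes (log2 difference −0.24, limma adjusted p = 0.0857), and voom on recovered reads called it lower (0.0467). The RPP2A to RPP2B log2 ratio was 0.16 higher in cnd1-3, again without overlap and with an exact permutation p of 0.1.

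CHS3 (AT5G17890) and CSA1 (AT5G17880) form a divergent pair that guards the co-receptor BAK1 and its inhibitor BIR3, with 3544 bases between the genes. CHS3 was at 4.08, 3.99 and 3.91 FPKM in cnd1-3 and 4.41, 5.07 and 4.64 in Col-0, without overlap but not past the test (log2 difference −0.21, limma adjusted p = 0.167). CSA1 was at 6.32, 6.91 and 5.83 FPKM in cnd1-3 and 6.71, 6.58 and 6.57 in Col-0, which overlapped. The log2 ratio of CHS3 to CSA1 differed by −0.15 between genotypes (exact permutation p = 0.2).

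The SOC3 cluster encodes SOC3 (AT1G17600), CHS1 (AT1G17610) and TN2 (AT1G17615), which act together or with partners in guarding the ubiquitin ligase SAUL1 and the exocyst. SOC3 was at 1.07, 1.40 and 1.36 FPKM in cnd1-3 and 1.68, 1.92 and 1.41 in Col-0. All cnd1-3 libraries lay below Col-0, the closest only just, and the difference did not pass (log2 difference −0.29, limma adjusted p = 0.25). CHS1 was at 0.122, 0.232 and 0.0917 FPKM in cnd1-3 and 0.218, 0.149 and 0.117 in Col-0, under the minimum level. SOC3 and CHS1 overlap on opposite strands, and 51.7% of SOC3 exon length and 9.5% of that of CHS1 belong to the gene alone. Whole reads could not be recovered for CHS1, and its FPKM lay below the 0.5 added before taking the ratio. Their ratio (difference −0.26, exact permutation p = 0.3) therefore says little about CHS1.

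The RPP5 cluster, 77.1 kb on chromosome 4 (9488466 to 9565569), holds the 4 named TIR-class genes with the highest levels, and none of its 4 named members passed the test. RLM3 (AT4G16990), a TIR protein needed against blackleg and other fungi, was at 43.4, 39.8 and 45.6 FPKM in cnd1-3 and 44.4, 43.6 and 44.2 in Col-0. SNC1 (AT4G16890), whose gain-of-function allele is a standard model of NLR autoimmunity, was at 35.9, 35.8 and 34.7 FPKM in cnd1-3 and 36.5, 37.2 and 38.3 in Col-0. The RLM3 values overlapped, while the SNC1 values did not but differed little, with a 95% interval of −0.21 to 0.07 on the log2 scale. RPP4 (AT4G16860), a downy mildew receptor next to SNC1, was at 21.5, 22.4 and 20.1 FPKM in cnd1-3 and 20.7, 24.0 and 22.9 in Col-0. The log2 ratio of SNC1 to RPP4 was 0.72 in each genotype (SD 0.05 in cnd1-3 and 0.09 in Col-0, n = 3 each; exact permutation p = 1.0). RPP5 had means of 18.0 ± 1.32 and 19.6 ± 1.29 FPKM (SD, n = 3 each; limma adjusted p = 0.355), and 25.0% of its 150-base exon windows occur elsewhere in the genome, so its reads cannot be fully told from those of its copies. Of the 12 tested genes in and beside the cluster only AT4G16900, a TIR-class gene outside the named set, was called. It fell from 6.33 ± 0.378 FPKM in Col-0 to 4.29 ± 0.382 in cnd1-3 (SD, n = 3 each; log2 fold change −0.51, SE 0.10, limma adjusted p = 0.0128). Repeated windows were searched only for the named receptors, so whether reads of AT4G16900 can be told from those of related genes was not examined.

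The other tested TIR-class genes, RPP1, WRR4, RPS6, TAO1, RAC1, RRS1B and DSC1, recognise oomycetes or bacteria or, for DSC1, are known from autoimmunity, and none passed. TAO1, which recognises a bacterial effector alongside RPM1, was the TIR gene with the highest log2 difference, 0.17, and its cnd1-3 libraries, 8.27 to 9.03 FPKM, all lay above its Col-0 libraries, 7.32 to 8.07 FPKM (limma adjusted p = 0.214). RPP1 was at 9.53 FPKM on average in each genotype. For RPP1, 20.3% of 150-base exon windows occur elsewhere. RAC1, a white rust receptor, had a log2 difference of −0.22 without overlap (limma adjusted p = 0.22). WRR4 (log2 difference −0.02) and RRS1B (0.00) changed sign with the scaling of the libraries.

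The 5 RPW8-like helpers did not pass the test in either direction, and their median log2 fold change was −0.12. NRG1.1 (AT5G66900), the more highly expressed NRG1 gene, acts with EDS1 and SAG101 and was at 11.3, 11.3 and 11.0 FPKM in cnd1-3 and 12.4, 11.4 and 11.8 in Col-0. The cnd1-3 libraries were all just below Col-0, and the 95% interval of the log2 difference was −0.24 to 0.08. NRG1.2 (AT5G66910), its neighbour 171 bases away, was at 3.03, 2.90 and 3.60 FPKM in cnd1-3 and 3.07, 3.37 and 3.58 in Col-0, with overlap. The log2 ratio of the 2 genes differed by −0.01 between genotypes (exact permutation p = 1.0). ADR1-L1 (AT4G33300), which acts with EDS1 and PAD4, was at 8.77, 7.18 and 7.90 FPKM in cnd1-3 and 8.17, 8.89 and 8.95 in Col-0, with overlap. ADR1 itself had the lowest log2 difference of the helpers, −0.30, with means of 2.08 ± 0.284 and 2.67 ± 0.087 FPKM (SD, n = 3 each) and no overlap, and it did not pass (limma adjusted p = 0.139). ADR1-L2 differed by −0.15 with overlap (limma adjusted p = 0.449).

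Besides CHS1, 4 receptors could not be tested because their mean was under 0.5 FPKM. RPS2 (AT4G26090), which guards RIN4 against a bacterial protease, was listed at 0 in all 6 libraries. All 3535 of its exon bases are shared with genes annotated on the opposite strand, AT4G26095 and AT4G26100. Of 368 coding genes with every exon base shared with another gene, on either strand, 352 (95.7%) were at 0 in every library, against 25.2% of 19818 coding genes with no shared base, so the value of RPS2 cannot be read as its expression. RFL1 (AT1G12210), a CC-class gene near SUMM2 on chromosome 1, rested on 40 cnd1-3 reads and 65 Col-0 reads, and only 10.7% of its exon length is unshared. RLM1 (AT1G64070), a blackleg receptor, showed 0 cnd1-3 reads and 5 Col-0 reads, and TN2 had 1 read in all 6 libraries.

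By cluster, RFL1 and SUMM2 lie within 37.8 kb on chromosome 1 (4140216 to 4178021), and SUMM2, the one that could be tested, fell. Of RPS4 and RRS1 1 of 2 fell, and no named receptor did in the RPP5, RPP2, CHS3 and CSA1, NRG1 and SOC3 groups. Among the 18 tested receptors outside these groups of named genes 2 fell, LAZ5 and RPM1. Some of the 18 still lie beside NLR genes outside the named set, as RRS1B does beside AT5G45060 (log2 difference −0.31, limma adjusted p = 0.0514). Of 9 tested genes in and beside the RFL1 to SUMM2 stretch, 7 encode no NLR, and none of those 7 fell. AT1G12230, annotated in the aldolase superfamily and lying between RFL1 and SUMM2, rose from 42.1 ± 1.30 to 53.5 ± 0.976 FPKM (SD, n = 3 each; log2 fold change 0.34, limma adjusted p = 0.00971). AT1G12290, a CC-class gene next to SUMM2 and outside the named set, was at 0.841 ± 0.169 FPKM in cnd1-3 and 0.872 ± 0.0572 in Col-0 (SD, n = 3 each), with a limma adjusted p of 0.899. In the RPP2 cluster the neighbouring TIR-class gene AT4G19520 rose from 3.41 ± 0.251 to 4.73 ± 0.44 FPKM (SD, n = 3 each; log2 fold change 0.42, limma adjusted p = 0.0356), where RPP2A and RPP2B did not pass. That call was lost in 5 of the 6 fits without 1 library (adjusted p 0.053 to 0.131) and with no minimum level (0.0691). Beside SOC3, NF-YA8 (AT1G17590), a gene outside the NLR family that was chosen for mention after its values were seen, fell from 3.32 ± 0.384 to 2.23 ± 0.146 FPKM (SD, n = 3 each; log2 fold change −0.48, limma adjusted p = 0.0321). Its call held in 1 of 6 fits without 1 library, that without Col-0 replicate 3 (0.0491), and was lost in the others (0.0576 to 0.097), with no minimum level (0.0619), under quantile normalization (0.109) and after removal of the GC and length trends (0.0591).

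**Figure D3:**
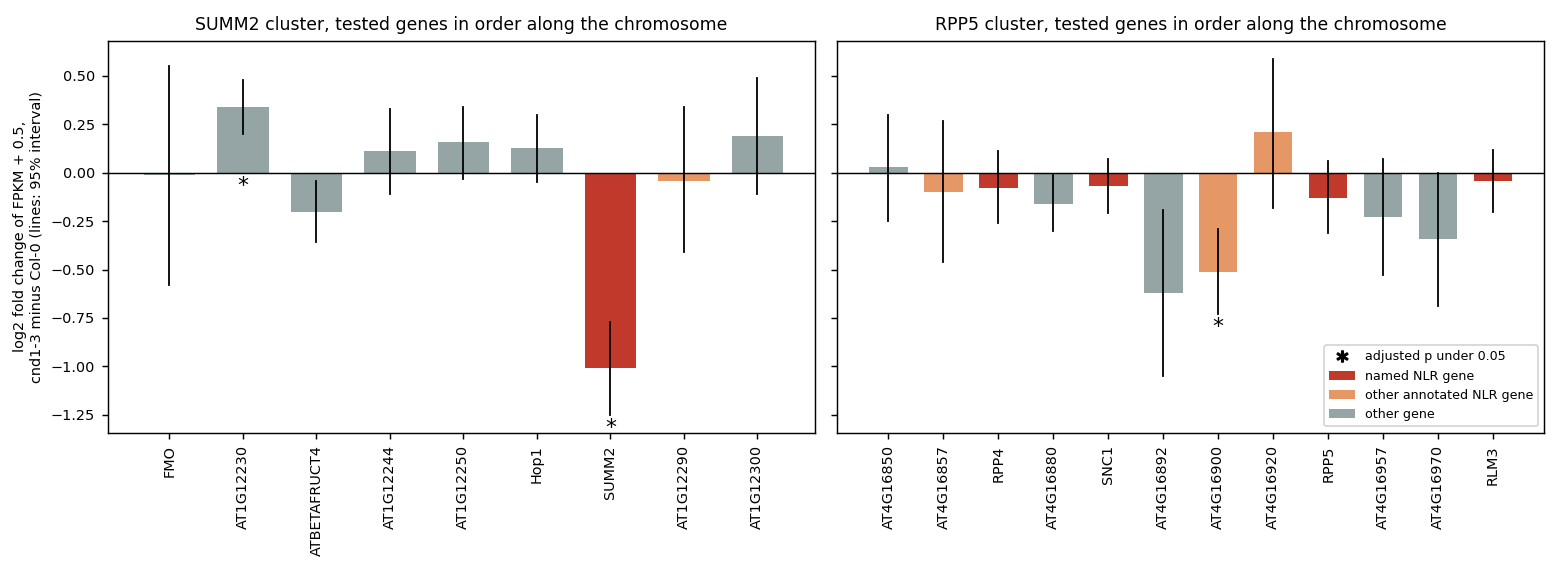
Log2 fold change of FPKM + 0.5, cnd1-3 minus Col-0 (bars, with 95% intervals as lines), of tested genes in and beside the SUMM2 cluster, the RFL1 to SUMM2 stretch (left), and the RPP5 cluster (right) in chromosomal order; asterisks mark an adjusted p under 0.05. In the SUMM2 cluster SUMM2 reaches −1.01 while the non-NLR gene AT1G12230 is higher by 0.34, and in the RPP5 cluster only AT4G16900 is marked.

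The best matches to miR472-3p among the 37 receptors were those of RFL1 and SUMM2. Of these SUMM2 could be tested and fell, and of the 7 tested CC-class receptors with more than 3, RPM1 fell. Of the 20 coding genes with a window of at most 3 unpaired bases 14 were tested, and 4 (28.6%, against 7.59% of all tested genes) fell, none rose and the median log2 fold change was −0.12. This group and its limit of 3 were chosen after values of these genes were seen, so those counts carry no test and include SUMM2, which prompted them. Besides SUMM2 the genes that fell were AT1G61310, AT1G61180 and AT5G43740, named here because they fell, all CC-class or NB-ARC genes outside the named set. AT1G61310 fell from 2.43 ± 0.229 to 1.01 ± 0.225 FPKM (SD, n = 3 each; log2 fold change −0.97, SE 0.15, limma adjusted p = 0.00603). It was called in all 16 alternatives that tested it, and its exon windows were not searched for repeats elsewhere in the genome. AT1G12290, with 2 unpaired bases, was among the 10 that did not pass. The gene MIR472 was listed at 0 in all libraries. It lies within the annotated span of AT1G12290 on the same strand, so this value may not reflect its expression. The preparation selected polyadenylated RNA, and mature microRNA was not measured. No level of miR472-3p is therefore known here, and its part in these changes was not tested.

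**Figure D4:**
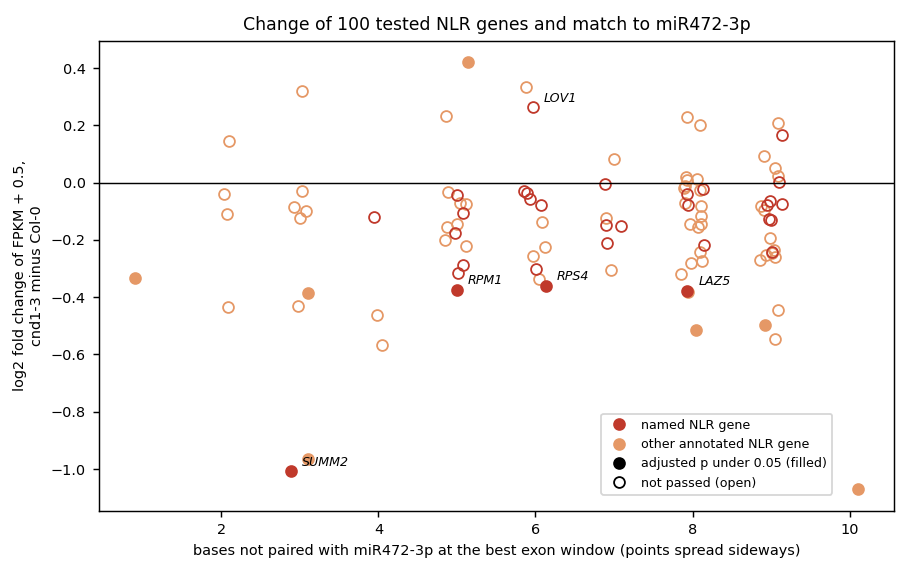
Log2 fold change of FPKM + 0.5, cnd1-3 minus Col-0, against the number of bases not paired with miR472-3p in the best exon window, for the 32 named and 68 other tested NLR genes (points spread sideways); filled points have an adjusted p under 0.05. SUMM2 (3 unpaired bases) lies at −1.01, and the lowest point, at −1.07, is AT1G72950.

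Upstream sequence was compared for 2 short motifs, TTGAC, the core bound by WRKY factors, and CGCG, the core bound by CAMTA factors, each on either strand from 250 bases before to 50 after the annotated start in TAIR10.1. TTGAC occurred in 21 of the 37 receptor promoters (56.8%) and in 50.5% of 27443 coding gene promoters. CGCG occurred in 6 of 37 (16.2%) and in 13.0% of all. Both shares lay near those of all promoters.

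Other coding genes whose RefSeq annotation text holds NBS-LRR, NB-ARC or TIR-NBS numbered 123, of which 68 reached the minimum level. NLR-related genes with other wording were not included. Of these 68 genes 6 fell (8.82%) and 1 rose. Their median log2 fold change was −0.14, nearly the same as that of the 32 tested named receptors. The largest fall was that of AT1G72950, a TIR-class gene without leucine-rich repeats, from 1.12 ± 0.482 FPKM in Col-0 to 0.259 ± 0.169 in cnd1-3 (SD, n = 3 each; log2 fold change −1.07, limma adjusted p = 0.0413). It rested on 26 reads in cnd1-3 and 130 in Col-0, and the call was lost in 4 of 6 fits without 1 library (adjusted p 0.0997 to 0.137) and with no minimum level (0.0582). A pseudocount of 0.1 gave AT1G72950 a log2 fold change of −1.77, and voom gave −2.06. Among the called genes AT1G61310 and AT4G16900, described above, followed. Fits on recovered reads with voom called 11 of the 68 lower and 1 higher, beside 6 of the 32 named receptors lower and none higher, where 8.51% of all genes were lower and 4.09% higher.

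Partner genes of NLR signalling were taken as a list of 38, of which 37 were tested, 4 fell (10.8%, against 7.59% of all tested genes), 1 rose and the median log2 fold change was −0.08. Of the node that carries signals from the receptors, NDR1, needed by several CC-class receptors including RPM1 and RPS2, fell. NDR1 was at 8.21, 9.91 and 10.4 FPKM in cnd1-3 and 18.0, 22.0 and 18.2 FPKM in Col-0. These values were far apart, with means of 9.51 ± 1.15 and 19.4 ± 2.24 FPKM (SD, n = 3 each; log2 fold change −0.99, SE 0.11, limma adjusted p = 0.00142). EDS1B, the tandem copy of EDS1, was at 0.226, 0.316 and 0.404 FPKM in cnd1-3 and 0.994, 1.27 and 1.22 FPKM in Col-0. It fell in every cnd1-3 library (log2 fold change −1.03, SE 0.18, limma adjusted p = 0.00871), from 237 to 55 reads, and the log2 fold change was −1.62 with a pseudocount of 0.1 and −1.86 with voom. EDS1B overlaps AT3G48070 on the opposite strand, and reads that could belong to either EDS1 copy were not examined. EDS1 (log2 difference −0.11), PAD4 (−0.21) and SAG101 (−0.37), which carry TIR-class signals, did not pass in limma (adjusted p 0.515, 0.219 and 0.126).

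Among the 4 tested genes that restrain NLRs, BAP1 and MUSE3 passed in opposite directions. BAP1, a membrane-associated protein whose loss activates SNC1-type defence, was at 0.801, 0.904 and 0.805 FPKM in cnd1-3 and 4.25, 8.96 and 6.10 FPKM in Col-0. Its fall was the largest of all partner genes (log2 fold change −2.32, SE 0.22, limma adjusted p = 0.000653). The Col-0 libraries differed among themselves by more than those of cnd1-3. MUSE3, a ubiquitination factor that promotes turnover of SNC1 and RPS2 protein, rose from 6.97, 7.37 and 6.70 FPKM in Col-0 to 8.65, 9.01 and 8.60 FPKM in cnd1-3. The log2 fold change was 0.30 (SE 0.08, limma adjusted p = 0.0408), and the call was lost in all 6 fits without 1 library (0.0645 to 0.124) and with no minimum level (0.0598). BON1, the partner of BAP1, was under the minimum level with 4 reads in each genotype, and 121 of its 2149 exon bases are unshared.

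Of the 14 genes whose products are guarded by receptors or act beside them, BIR3 alone was called. BIR3, watched over by CSA1 and CHS3, was at 6.28, 6.20 and 6.42 FPKM in cnd1-3 and 8.08, 8.52 and 7.52 FPKM in Col-0 (log2 fold change −0.33, SE 0.08, limma adjusted p = 0.0356). The call held in 1 of 6 fits without 1 library, that without Col-0 replicate 3, and was lost in the others (0.0833 to 0.111), with no minimum level (0.0582) and under quantile normalization (0.0627). TRX5, the thioredoxin guarded by LOV1, was at 0.374, 0.807 and 0.928 FPKM in cnd1-3 and 0.977, 2.22 and 2.96 FPKM in Col-0. Its libraries did not overlap but were widely spread, and it did not pass (log2 difference −1.03, SE 0.32, limma adjusted p = 0.0713). Of the 6 fits without 1 library only that without Col-0 replicate 1 called it (0.0166), and TRX5 was chosen for mention after its values were seen. MEKK1, MKK1, MKK2, MPK4 and CRCK3, the cascade guarded by SUMM2, did not pass, with log2 differences from −0.25 to 0.00, and neither did RIN4 (−0.08), guarded by RPM1. The chaperone group that folds NLRs had no call among 6 genes, and its most highly expressed gene HSP90.3 was at 133 ± 6.19 FPKM in cnd1-3 and 116 ± 3.89 in Col-0 (SD, n = 3 each; limma adjusted p = 0.0843). None of the 7 genes needed for snc1 autoimmunity was called, and the highest, the spliceosome-associated MOS4, was at 35.4 ± 0.58 and 35.6 ± 2.53 FPKM (SD, n = 3 each). EDM2, the regulator of RPP7, had a log2 difference of −0.17 (limma adjusted p = 0.246).

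**Figure D5:**
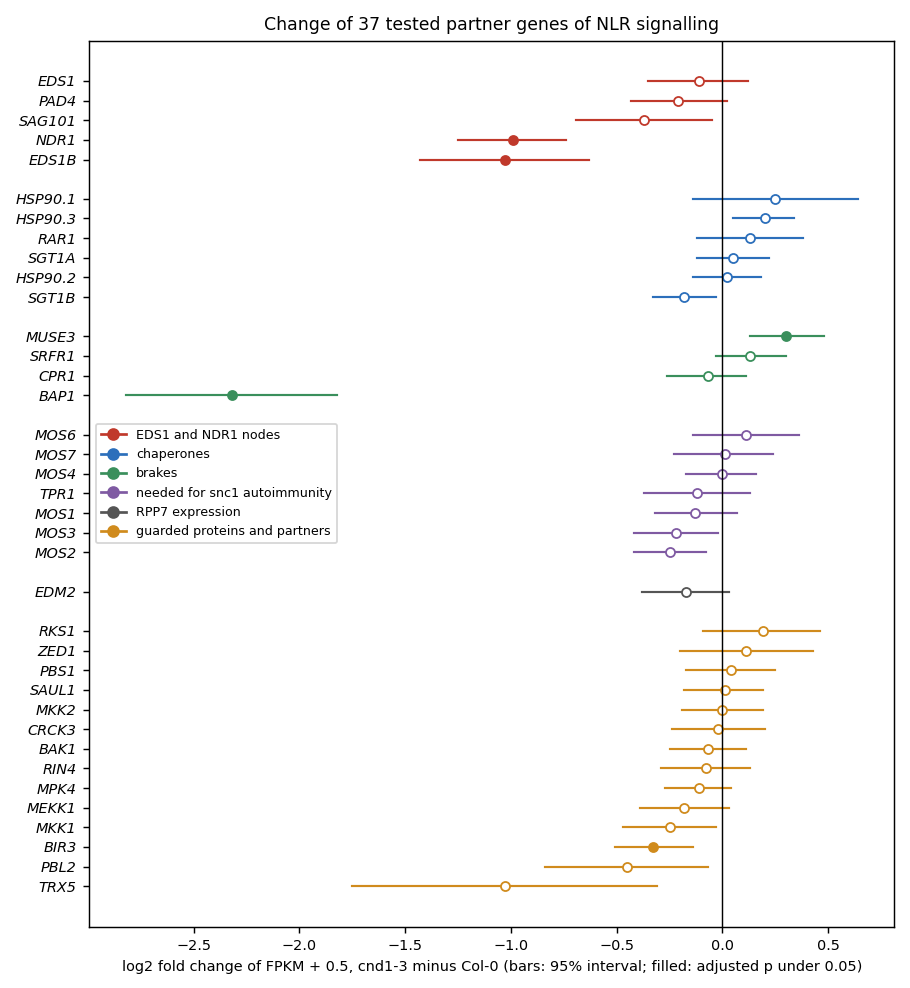
Log2 fold change of FPKM + 0.5, cnd1-3 minus Col-0, with 95% intervals, for the 37 tested partner genes of NLR signalling by role; filled points have an adjusted p under 0.05. BAP1 at −2.32, EDS1B at −1.03, NDR1 at −0.99 and the open point of TRX5 at −1.03 stand far to the left of most partners, and MUSE3 at 0.30 is the only filled point on the right.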

How the data were processed

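Poly(A) RNA of 3 cnd1-3 and 3 Col-0 seedling libraries was sequenced as 150-base read pairs, per the labels' protocols. The authors deposited FPKM per gene. HISAT2, featureCounts (Subread), DESeq2 and the TAIR10 build are named in the submitters' processing notes, without versions; whether counting used strand is not given in the sources used here. Dividing FPKM by the value of 1 read gave whole reads for 99.3% to 99.4% of each library's non-zero values (tolerance 0.01 reads). Exon lengths, overlaps, neighbours and sequences came from the RefSeq annotation of TAIR10.1.

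FPKM values were tested with limma 3.58.1 in R 4.3.3 on log2(FPKM + 0.5), with an intensity trend, genes of mean FPKM of at least 0.5 and Benjamini-Hochberg adjustment over all tested genes. Pair ratios, taken from FPKM + 0.5, were tested with exact 2-sided permutation tests. The limma script was tested on simulated data. Alternatives were other pseudocounts, minimum levels and scalings, a replicate block, removal of GC and length trends, limma's voom on recovered reads (2112 of 16766 genes called) and leaving out each library.

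Values per library are given for called receptors, paired receptors and the 2 highest of each class. Of partner genes, the called ones and the highest of each group without a call are named, and of other NLR genes the 3 largest called falls and rises. Of the 38 listed receptors 1 is not reported here. The receptors, lists and tests were chosen with earlier results of these data known. Motif and microRNA windows were searched with Python 3.11.15.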

Additional observations from a re-analysis of the deposited data

How the results depend on the processing

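SUMM2, the partner genes NDR1 and BAP1, and the cluster neighbours AT4G16900 and AT1G12230 were called in all 17 alternatives. EDS1B and AT1G61310 were called in all 16 that tested them. Of 743 log2 fold changes recomputed for named genes, 647 kept their sign and side of the threshold, 55 lost their call, 8 gained one and 33 changed sign, the last in 9 genes and never with a call. The counts of genes called moved more. All genes called higher numbered 942 under median-ratio scaling, 980 under quantile normalization, 1132 with GC and length trends removed, 1020 with the replicate block, 1684 with both, and 260 to 549 without 1 library; genes called lower numbered 613 to 1299 without 1 library. Receptors called lower were 2 with no minimum level, 2 under quantile normalization, where 1 (LOV1) was higher, and 1 to 3 without 1 library. Partner genes called higher were 0 with no minimum level, 2 under median-ratio scaling, 2 with the block, 2 with block and GC and length removal, and 0 without any 1 library. Other NLR genes called higher were 0 with no minimum level and 0 to 1 without 1 library; those called lower were 3 with no minimum level, 3 under quantile normalization, 3 with GC and length trends removed, 11 with voom and 2 to 6 without 1 library. Sign changes under median-ratio scaling, quantile normalization, GC and length removal, and that with the block were 0.01, 0.10, 0.05 and 0.05 for RRS1, 0.03, 0.04, 0.03 and 0.03 for WRR4, 0.01, 0.01, 0.02 and 0.02 for CW9, and 0.05, 0.11, 0.05 and 0.05 for RRS1B. RPP7 gave 0.03, 0.05 and 0.05 and RLM3 0.02, 0.03 and 0.03 under these but quantile normalization, under which NRG1.2 gave 0.06 and CSA1 0.03. Without 1 library, values that changed sign in some fits ranged from −0.09 to 0.03 for RRS1, −0.05 to 0.03 for RPP1, −0.07 to 0.01 for RPP7, −0.08 to 0.01 for RLM3, −0.05 to 0.03 for WRR4 and −0.03 to 0.03 for RRS1B. The SNC1 to RPP4 ratio difference was 0.01 with a pseudocount of 0.1 and −0.04 to 0.05 without 1 library, and that of NRG1.1 to NRG1.2 −0.08 to 0.08. The cause of these shifts was not tested; fits without a library have fewer samples. Same-numbered libraries correlated at 0.0324, 0.157 and 0.263 in their deviations, and unlike-numbered libraries at −0.237 to 0.0846. Replicates 2 and 3 of cnd1-3 were closest to the Col-0 library of their own number, and replicate 1 to Col-0 replicate 2 (0.0846). The main fit did not take the numbers as pairs, and whether same-numbered libraries share a batch was not tested. The replicate block called 1020 genes higher and 1859 lower, and 5 receptors lower, and it called RPP13 (adjusted p 0.0424) and TRX5 (0.00971) with limma; with GC and length removal it lost RPS4 (0.0506) and BIR3 (0.0512). RLM1 and TN2 had too few reads to compare; RFL1 and CHS1 were also low, and share most of their exon bases with other genes.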
